A study of Mus musculus with 8 samples.

Results

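Here 6 innate immune genes are described in mouse 2-cell embryos with and without the transcription factor DUX: Ddx58, Stat2, Cxcl10, Bst2, Oas1d and Oas1e. They were taken by symbol from the deposited gene table, where all 6 had a row among 13101 genes. All 6 also passed the filter on low values, a mean of at least 0.5 FPKM (fragments scaled to transcript length and library size) over all pools, which left 12434 genes. The rule used symbols only, but the 6 genes were chosen with earlier results of these data known. Polyadenylated RNA was sequenced from 8 pools of whole embryos at the 2-cell stage, 12 to 18 embryos each, from timed matings on the C57BL/6 background. In 4 pools the embryos carried a knockout of Dux (Dux KO) and in 4 they were wild type (WT). The labels name no treatment and no other allele. They do not describe the knockout allele, the number of lines, or whether pools come from different litters, so p-values measure only the spread between these pools.

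Dux encodes a double homeobox factor known to activate 2-cell-stage genes and the endogenous retrovirus MERVL. Innate immune signalling starts when sensors such as RIG-I, the product of Ddx58, bind foreign RNA in the cytoplasm and, through an adaptor on mitochondria, switch on interferon genes and NF-kB. Secreted interferon acts through receptors, the kinases JAK1 and TYK2 and the factor ISGF3, which contains STAT2 and binds the interferon-stimulated response element (ISRE) of target genes. Those targets include the chemokine Cxcl10, the antiviral membrane protein Bst2 and the 2-5A synthetases. Oas1d and Oas1e belong to an expansion of the Oas1 family in rodents, and mouse Oas1d is known as an oocyte protein without synthetase activity.

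Of the 6 genes, Cxcl10 and Ddx58 were higher in Dux KO, Stat2 and Bst2 were lower, and Oas1d and Oas1e did not pass the test. The comparison asks which transcripts differ when Dux is lost. The test was limma on log2(FPKM + 1) over all 12434 genes, at a Benjamini-Hochberg adjusted p under 0.05. By it 2 of the 6 were higher, where 15.5% of all genes tested were higher, and 2 were lower, where 18.1% of all genes were lower. Together 4 of the 6 passed, against 33.6% of all genes. The same 4 had no overlap between the WT and the Dux KO pools, which held for 33.1% of all genes. With 6 genes chosen by name, no more is read from these shares.

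Promoter sequences are shown for the genes with an entry, and marked for the ISRE core, the letters through which interferon signalling is known to act. RefSeq promoter entries (build GRCm38.p6) were matched by symbol for 4 of the 6 genes, Ddx58, Cxcl10, Bst2 and Stat2. These are also the 4 that passed. Oas1d and Oas1e had no entry and were not searched, so the core cannot be compared between genes that passed and genes that did not. Each window of 300 bases is printed 5′ to 3′ on the gene's strand, ends shortly after the start site that RefSeq annotates, and has ISRE core letters in capitals. The windows lie at chr4:40239776-40240075 (minus strand, Ddx58), chr5:92348840-92349139 (minus strand, Cxcl10), chr8:71537423-71537722 (minus strand, Bst2) and chr10:128270248-128270547 (plus strand, Stat2). Positions below count from the RefSeq start. For Stat2 that start lies upstream of the GENCODE M21 gene start whose coordinates are given with its levels, so its window ends before the GENCODE start.
Ddx58: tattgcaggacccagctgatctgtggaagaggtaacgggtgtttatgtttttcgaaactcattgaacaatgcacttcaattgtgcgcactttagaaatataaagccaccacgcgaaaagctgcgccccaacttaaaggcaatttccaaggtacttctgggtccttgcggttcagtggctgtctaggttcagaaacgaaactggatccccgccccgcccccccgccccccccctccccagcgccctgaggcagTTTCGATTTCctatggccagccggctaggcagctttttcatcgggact
Cxcl10: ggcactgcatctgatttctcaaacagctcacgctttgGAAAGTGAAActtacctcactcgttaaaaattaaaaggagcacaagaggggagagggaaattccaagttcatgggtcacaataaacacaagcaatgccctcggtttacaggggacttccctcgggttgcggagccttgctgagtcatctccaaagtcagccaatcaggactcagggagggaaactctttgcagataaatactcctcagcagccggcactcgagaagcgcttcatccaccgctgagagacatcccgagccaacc
Bst2: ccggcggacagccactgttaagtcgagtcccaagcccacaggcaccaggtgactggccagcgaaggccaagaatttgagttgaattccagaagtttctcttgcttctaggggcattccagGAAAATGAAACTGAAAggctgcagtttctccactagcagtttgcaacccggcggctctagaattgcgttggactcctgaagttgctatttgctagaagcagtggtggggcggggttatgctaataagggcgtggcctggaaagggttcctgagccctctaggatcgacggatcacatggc
Stat2: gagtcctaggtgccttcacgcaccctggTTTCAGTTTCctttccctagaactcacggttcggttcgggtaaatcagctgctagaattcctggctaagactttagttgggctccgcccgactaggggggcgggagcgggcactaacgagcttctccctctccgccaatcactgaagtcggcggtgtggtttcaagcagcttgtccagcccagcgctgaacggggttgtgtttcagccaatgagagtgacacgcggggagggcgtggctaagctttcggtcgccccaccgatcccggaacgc

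The ISRE core searched was GAAANNGAAA on both strands, and it was present in 4 of 4 windows, against 3.44% of 32851 promoter windows of the same length. The match of Cxcl10 began 213 bases upstream of the RefSeq start site. Bst2 held matches beginning 130 and 124 bases upstream, which overlap each other. The match of Stat2 lay on the reverse strand, 222 bases upstream, and that of Ddx58 on the reverse strand from base 3 after the start site. Both genes that were higher and both that were lower in Dux KO thus carried the same core letters. The GAS core TTCNNNGAA, known as the site of STAT dimers, matched in Bst2 alone of the 4 (8.30% of all windows), where it overlaps the first ISRE match. The kappaB core GGGANNNNCC, known as the site of NF-kB, matched at 2 places in Cxcl10 and in none of the other windows (20.7% of all windows). A DUX core, TGATTNNATCA, matched in 0 of the 4 windows and in 0.207% of all windows. These are letter matches in short windows and show no binding. The genes and the motifs were chosen with earlier results of these data known, so no more is read from the shares of windows.

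Oas1d and Oas1e are near copies of each other, and a stretch of each coding sequence is shown for how closely they match. Over 1081 aligned coding bases, 977 were identical (90.4%), by GENCODE M21 transcripts. In the first 90 coding bases, printed 5′ to 3′ from the start codon, they differ at 1 base, given in capitals.
Oas1d: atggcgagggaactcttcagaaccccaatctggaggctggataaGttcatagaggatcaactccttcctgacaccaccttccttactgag
Oas1e: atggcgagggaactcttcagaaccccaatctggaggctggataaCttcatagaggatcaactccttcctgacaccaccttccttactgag

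Levels are given first for all 6 genes, since FPKM is scaled to transcript length. In WT pools the mean level fell in the order Oas1d, Oas1e, Bst2, Stat2, Cxcl10 and Ddx58. The WT ranges of Oas1e and Bst2 overlapped, as did those of Stat2 and Cxcl10. In Dux KO pools the order was Oas1d, Oas1e, Cxcl10, Bst2, Ddx58 and Stat2, so that Cxcl10 stood above Bst2 and Ddx58 above Stat2 by their means. In Dux KO the ranges of Oas1e and Cxcl10 overlapped, as did those of Cxcl10 and Bst2 and those of Ddx58 and Stat2. By mean FPKM over all pools, Oas1d ranked 639 and Ddx58 ranked 8357 of 12434 genes.

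**Figure D1:**
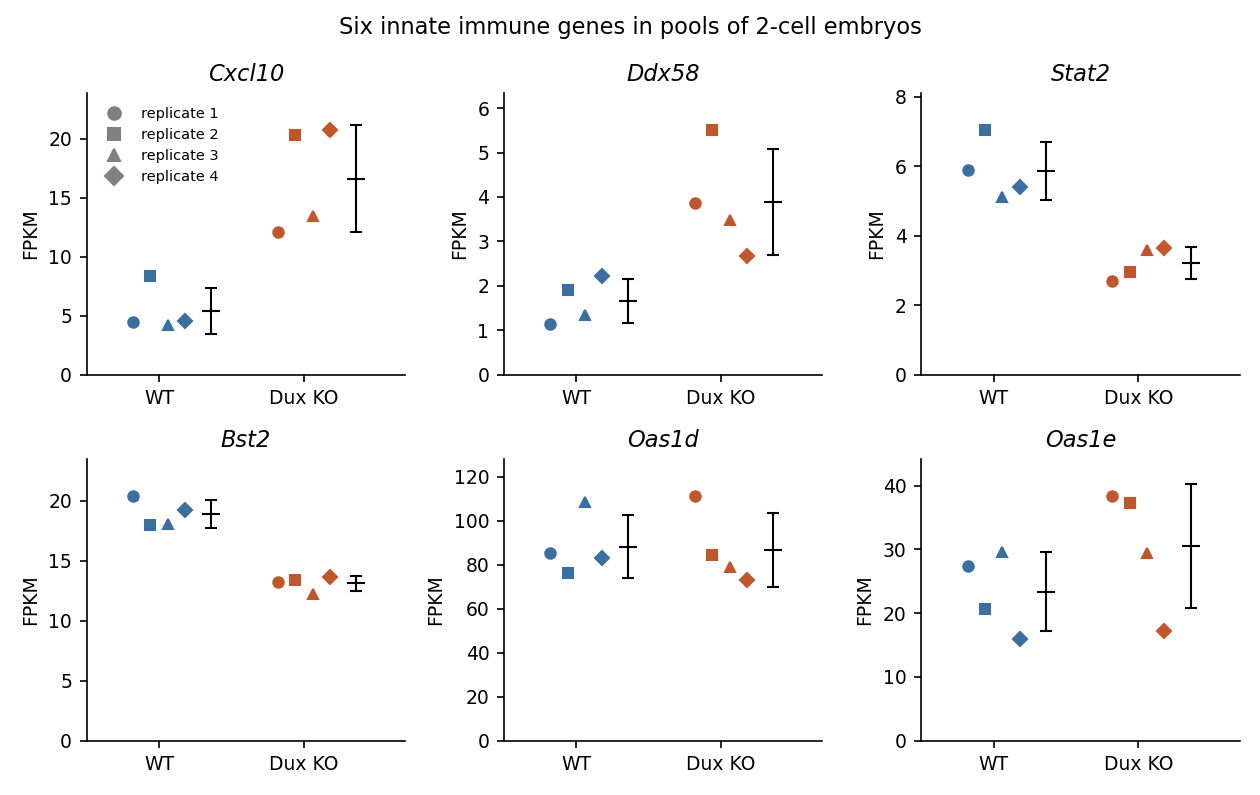
FPKM of each of the 6 genes in every pool of 2-cell embryos, 4 WT and 4 Dux KO, 1 point per pool, with the mean and SD of each group beside the points. Cxcl10 and Ddx58 are higher in every Dux KO pool than in any WT pool, Stat2 and Bst2 are lower, and the points of Oas1d and Oas1e overlap.

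Ddx58, the cytoplasmic sensor of viral RNA, was low in all pools and higher in Dux KO. Ddx58 (ENSMUSG00000040296) lies at chr4:40203773-40239828 on the minus strand of GRCm38. Its level was 1.14, 1.91, 1.34 and 2.23 FPKM in WT replicates 1 to 4 and 3.87, 5.50, 3.49 and 2.68 FPKM in Dux KO replicates 1 to 4. Every Dux KO pool lay above every WT pool, and Dux KO replicate 4 was nearest to the WT pools. These values rest on 99 to 207 recovered reads in WT and 263 to 610 in Dux KO. The mean rose from 1.66 ± 0.502 to 3.89 ± 1.19 FPKM (SD, n = 4), a ratio of 2.35. The log2 fold change on the log2(FPKM + 1) scale, which understates changes of low genes, was 0.87 (95% interval 0.42 to 1.32). The adjusted p by limma was 0.0109, and an exact two-sided permutation test gave p = 0.0286, the lowest possible with 4 pools a group. The authors' deposited table gives Ddx58 a log2 fold change of 1.23. Without Dux KO replicates 1 and 2 together, an alternative added after seeing the data, it was 0.63 and did not pass (limma adjusted p = 0.109). In bulk samples such as these pools, a change in the number of cells with a transcript and a change in its amount per cell cannot be told apart.

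Stat2, the interferon-specific subunit of ISGF3, was lower in Dux KO. Stat2 (ENSMUSG00000040033) lies at chr10:128270559-128292849 on the plus strand. Its level was 5.89, 7.03, 5.11 and 5.40 FPKM in WT replicates 1 to 4 and 2.70, 2.95, 3.59 and 3.63 FPKM in Dux KO replicates 1 to 4. All 4 Dux KO pools lay below all WT pools, and WT replicate 2 was the highest. The mean fell from 5.86 ± 0.847 to 3.22 ± 0.466 FPKM (SD, n = 4), with 365 to 579 recovered reads in WT and 232 to 315 in Dux KO. The log2 fold change was -0.70 (95% interval -1.05 to -0.35; adjusted p by limma 0.00964; p = 0.0286 in an exact two-sided permutation test). In the authors' deposited table it was -0.87. Without Dux KO replicates 1 and 2 it was -0.57 and did not pass (limma adjusted p = 0.106).

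Cxcl10, a chemokine that draws activated T cells and natural killer cells through the receptor CXCR3, differed most of the 6. Cxcl10 (ENSMUSG00000034855) lies at chr5:92346638-92348889 on the minus strand. Its level was 4.44, 8.37, 4.24 and 4.59 FPKM in WT replicates 1 to 4 and 12.1, 20.3, 13.4 and 20.7 FPKM in Dux KO replicates 1 to 4. WT replicate 2 stood above the other WT pools and still below every Dux KO pool. The Dux KO pools fell into a lower pair, replicates 1 and 3, and a higher pair, replicates 2 and 4. The mean rose from 5.41 ± 1.98 to 16.6 ± 4.52 FPKM (SD, n = 4), a ratio of 3.08, with 115 to 262 recovered reads in WT and 395 to 719 in Dux KO. The log2 fold change was 1.47 (95% interval 0.95 to 1.99; adjusted p by limma 0.00302; p = 0.0286 in an exact two-sided permutation test). In the authors' deposited table it was 1.62.

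Cxcl10 lies inside Art3, a gene on the opposite strand that encodes an ADP-ribosyltransferase family member. The library kit does not mark strand, so reads of Cxcl10 and Art3 where they overlap cannot be told apart. Of the 50-base words of the Cxcl10 transcript, 8.04% also occur in Art3. Art3, named after its values were seen, ranged from 1.24 to 3.26 FPKM in WT and from 0.501 to 1.97 FPKM in Dux KO and did not pass (limma adjusted p = 0.132, log2 fold change -0.49). Cxcl9 and Cxcl11, which neighbour Cxcl10 and are known for the other ligands of CXCR3, did not pass either; GENCODE M21 annotates Cxcl11 as a polymorphic pseudogene. Cxcl9 was at 0.135 to 0.859 in WT pools and 0.434 to 1.40 FPKM in Dux KO (limma adjusted p = 0.426). Cxcl11 was at 1.98 to 3.21 in WT pools and 1.67 to 2.93 FPKM in Dux KO (limma adjusted p = 0.523).

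Bst2, also called tetherin, which holds budding enveloped virus at the cell surface, was lower in Dux KO by a small and even margin. Bst2 (ENSMUSG00000046718) lies at chr8:71534255-71537456 on the minus strand. Its level was 20.4, 17.9, 18.0 and 19.2 FPKM in WT replicates 1 to 4 and 13.2, 13.4, 12.2 and 13.7 FPKM in Dux KO replicates 1 to 4. The pools of each group lay close together, and the groups did not overlap. These values rest on 196 to 228 recovered reads in WT and 163 to 190 in Dux KO. The closeness of the pools was not tested against the counting error of so few reads. The mean fell from 18.9 ± 1.14 to 13.1 ± 0.650 FPKM (SD, n = 4). The log2 fold change was -0.49 (95% interval -0.79 to -0.20; adjusted p by limma 0.0177; p = 0.0286 in an exact two-sided permutation test). In the authors' deposited table it was -0.53. With edgeR on recovered reads the change was -0.49 and did not pass (adjusted p = 0.0716). It also did not pass by limma without Dux KO replicates 1 and 2 (-0.51, adjusted p = 0.0909) or without Dux KO replicates 3 and 4 (-0.47, adjusted p = 0.0562).

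Oas1d was by far the most abundant of the 6 and did not pass the test. Oas1d (ENSMUSG00000032623) lies at chr5:120914536-120921652 on the plus strand. Its level was 85.1, 76.1, 109 and 83.2 FPKM in WT replicates 1 to 4 and 111, 84.3, 78.9 and 73.0 FPKM in Dux KO replicates 1 to 4. The highest pools were WT replicate 3 and Dux KO replicate 1, and the groups overlapped throughout. The means were 88.3 ± 14.2 (WT) and 86.9 ± 16.9 FPKM (Dux KO) (SD, n = 4). The log2 fold change was -0.03 (95% interval -0.41 to 0.35; adjusted p by limma 0.903; p = 0.8 in an exact two-sided permutation test), and its sign turned with quantile normalization (0.23).

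Oas1e also did not pass, with a wide spread in both groups. Oas1e (ENSMUSG00000066867) lies at chr5:120786226-120795530 on the minus strand. Its level was 27.4, 20.6, 29.6 and 16.0 FPKM in WT replicates 1 to 4 and 38.4, 37.2, 29.4 and 17.3 FPKM in Dux KO replicates 1 to 4. Dux KO replicates 1 and 2 lay above all WT pools, while replicates 3 and 4 lay within the WT range. The means were 23.4 ± 6.26 and 30.6 ± 9.72 FPKM (SD, n = 4), and the log2 fold change was 0.35 (95% interval -0.23 to 0.92; adjusted p by limma 0.312; p = 0.286 in an exact two-sided permutation test). It was -0.01 without Dux KO replicates 1 and 2 and 0.71 without replicates 3 and 4 (limma adjusted p = 0.0577 in the second case). Oas1e overlaps the antisense gene Gm43069, and reads of the overlap cannot be told apart without strand.

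**Figure D2:**
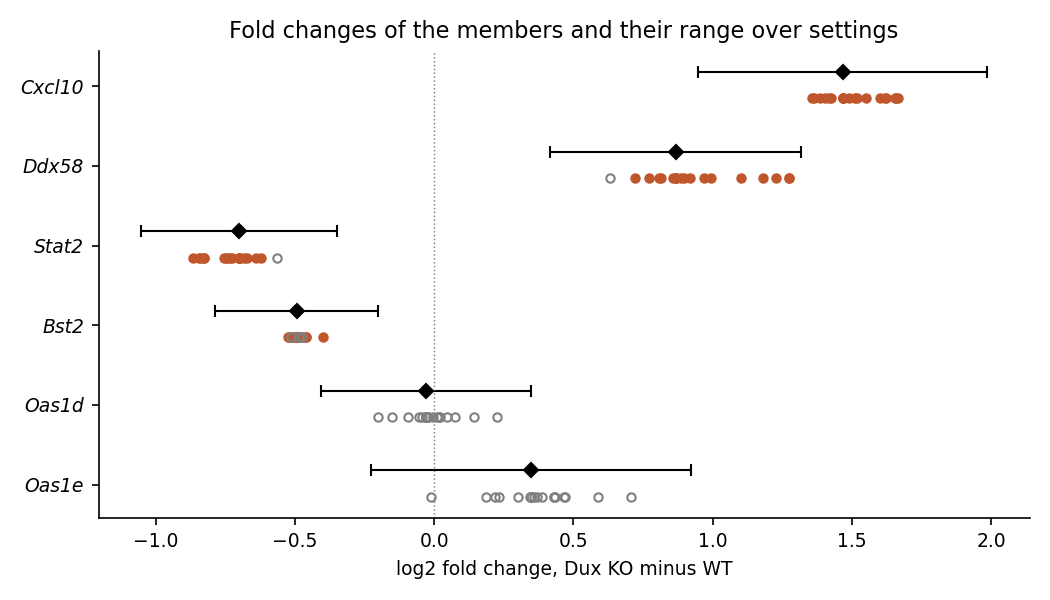
Log2 fold change (Dux KO minus WT) of each of the 6 genes, with black diamonds and bars for the limma value and its 95% interval, and dots for the alternatives, orange where the adjusted p was under 0.05 and open grey where it was not. Cxcl10 stays between 1.36 and 1.67 with every dot orange, whereas Oas1d lies on both sides of 0.

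Among the other Oas1 genes of the same cluster, Oas1c and Oas1f rose in Dux KO. Oas1c was at 12.8, 10.8, 10.6 and 9.63 FPKM in WT replicates 1 to 4 and 18.3, 21.8, 17.1 and 13.2 FPKM in Dux KO replicates 1 to 4. It rose from 10.9 ± 1.34 to 17.6 ± 3.57 FPKM (limma adjusted p = 0.0202, log2 fold change 0.62), and its call was lost without WT replicate 4 or Dux KO replicate 1 (limma adjusted p 0.0549 to 0.0586). Oas1f was at 11.4 to 14.2 in WT pools and 15.7 to 24.7 FPKM in Dux KO. It rose from 13.1 ± 1.24 to 20.0 ± 3.70 FPKM (limma adjusted p = 0.0248, log2 fold change 0.56), and its call was lost without any of WT replicates 2 and 4 and Dux KO replicates 1 and 2 (limma adjusted p 0.0517 to 0.0607). Oas1h (limma adjusted p = 0.471, log2 fold change 0.15) and Oas1b (limma adjusted p = 0.340, log2 fold change 0.40) did not pass. The related genes Oasl1 and Oasl2 did not pass either, at 1.27 ± 0.725 and 0.959 ± 0.468 FPKM in WT and 0.458 ± 0.190 and 0.456 ± 0.135 FPKM in Dux KO (limma adjusted p = 0.0677 and 0.0990). In the list of the 2-5A system, which held 8 tested genes with Oas1d and Oas1e among them, 2 thus rose, 0 fell by limma and 6 did not pass, and at an unadjusted p under 0.05 the 2 lower would be Oasl1 and Oasl2. By edgeR 2 genes of this list were higher and 0 lower, and by DESeq2 2 were higher and Oasl1 was lower. Oas1a and Oas1g have no row in the table used.

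The summed level of the Oas1 genes was 140 to 180 in WT pools and 137 to 211 FPKM in Dux KO, and the groups overlapped. Oas1d made up 53.2 to 60.5% of that sum in WT and 43.1 to 53.3% in Dux KO. Of the 50-base words of the Oas1d transcript, 6.24% also occur in Oas1c, Oas1e or Oas1f, and 11.5% of those of Oas1e occur in other genes, among them Oas1c and Oas1d. How reads with several positions were counted is not given in the sources used here, so the levels of these near copies are uncertain to that extent. Ddx58, Stat2 and Bst2 shared no such words with another gene.

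**Figure D3:**
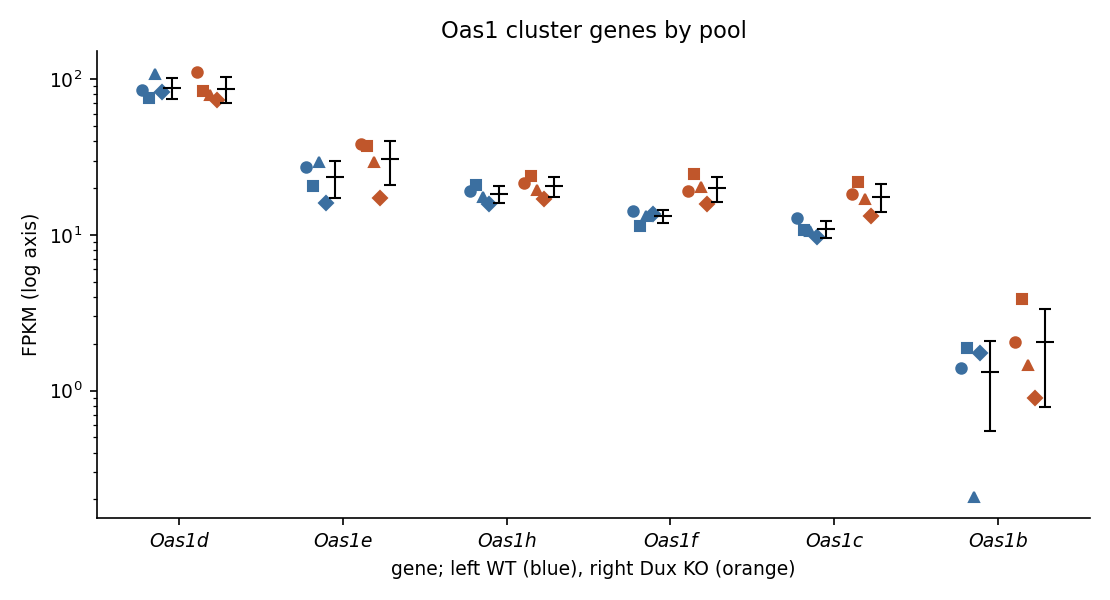
FPKM on a log axis of the 6 Oas1 genes with a row in the table, Oas1d, Oas1e, Oas1h, Oas1f, Oas1c and Oas1b, with 1 point per pool for WT and Dux KO. Oas1f and Oas1c are the genes whose groups do not overlap, with Oas1f at 11.4 to 14.2 in WT pools and 15.7 to 24.7 FPKM in Dux KO.

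The rest of the pathway was described by 9 lists from sensing to effectors, with 160 genes listed and 88 in the table. Without the 6 genes themselves, 78 genes were tested, of which 13 were higher (16.7%), 15 lower (19.2%) and 50 did not pass, with a median log2 fold change of -0.01. Over all genes 15.5% were higher and 18.1% lower, with a median of -0.02, so these shares lie near the background. Counts of the single lists below include those of the 6 genes that a list holds. They stand beside the same shares of all genes, and no more is read from them. Without Dux KO replicates 1 and 2 together, 5 of the 78 passed, beside 795 of all 12434 genes. The table lists no gene of very low mean count. Genes without a row include the sensor Ifih1, the interferon genes Ifnb1 and Ifna4, the receptor Ifnar2, and the classical interferon-induced genes Ifit1, Isg15, Mx1, Rsad2, Oas2 and Oas3.

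**Figure D4:**
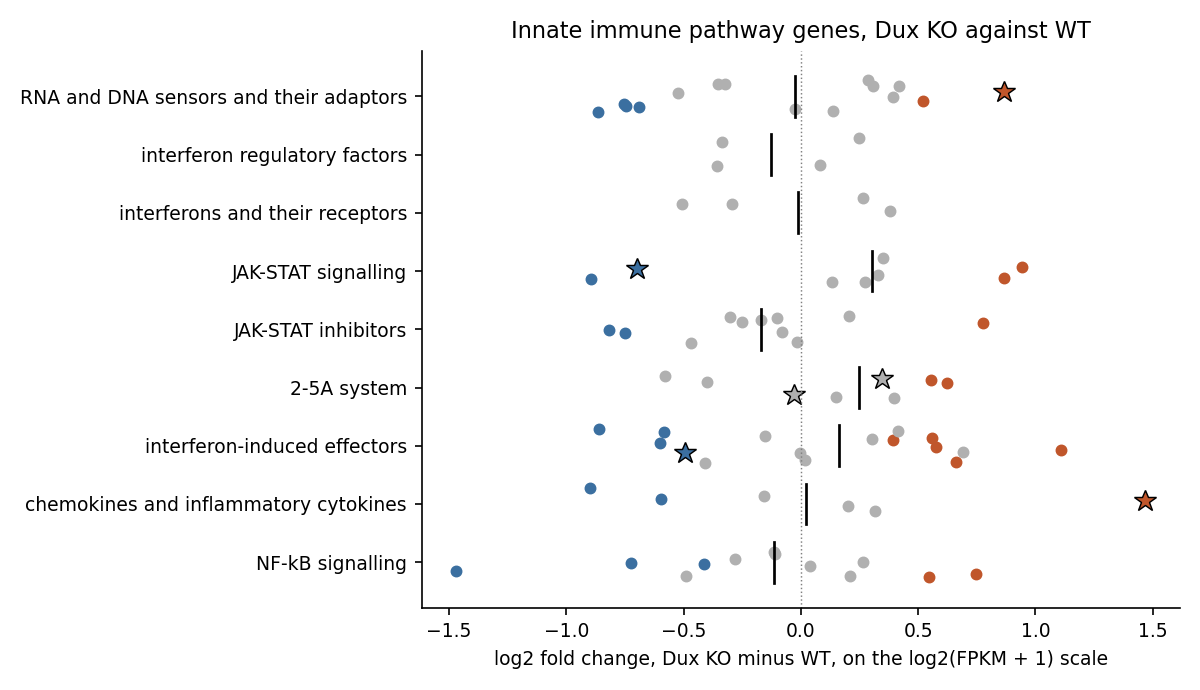
Log2 fold change (Dux KO minus WT) of each tested gene in the 9 pathway lists, orange where higher, blue where lower and grey where the test was not passed, with stars for the 6 genes and a black bar for the median of each list. Orange and blue points stand in both directions in most lists, and the medians lie between -0.17 and 0.30.

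Among 15 sensors and adaptors tested, 2 rose, 4 fell and 9 did not pass, with a median log2 fold change of -0.03. Beside Ddx58, Myd88, the adaptor of most Toll-like receptors, rose from 2.47 ± 0.339 to 4.03 ± 1.05 FPKM (limma adjusted p = 0.0466). Its call was lost without any 1 of 7 pools, all but Dux KO replicate 3 (limma adjusted p 0.0627 to 0.118), and with quantile normalization (0.0802). Ticam1, the adaptor of TLR3, fell from 1.31 ± 0.492 to 0.250 ± 0.109 FPKM (limma adjusted p = 0.00420, log2 fold change -0.86). Rnf135, a ubiquitin ligase that helps activate RIG-I, fell from 5.90 ± 0.593 to 3.18 ± 0.962 FPKM, opposite in direction to Ddx58 (limma adjusted p = 0.0163, log2 fold change -0.75). Nlrp3, an inflammasome sensor, fell from 1.93 ± 0.492 to 0.742 ± 0.226 FPKM (log2 fold change -0.74). Tmem173, the DNA-sensing adaptor STING, fell from 2.55 ± 0.757 to 1.18 ± 0.427 FPKM (limma adjusted p = 0.0253). Its call was lost without any 1 of 6 pools, WT replicates 1, 3 and 4 and Dux KO replicates 1 to 3 (limma adjusted p 0.0502 to 0.0684).

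None of 4 interferon regulatory factors and none of 4 interferon receptor genes tested passed by limma. No interferon gene of the list had a row, so none was tested. At an unadjusted p under 0.05, 0 of the factors and 2 of the receptor genes, 1 in each direction, would have passed. On recovered reads edgeR and DESeq2 gave 0 in both lists. Irf1 was at 10.9 ± 2.56 and 11.4 ± 2.11 FPKM and Irf3 at 5.52 ± 1.40 and 4.09 ± 0.438 FPKM in WT and Dux KO. The receptor Ifnar1 was at 7.35 ± 2.68 and 5.61 ± 1.10 FPKM. Ifngr1 was at 2.19 ± 0.961 and 1.17 ± 0.242 FPKM, and passed without WT replicate 3 (limma adjusted p = 0.0155).

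In the JAK-STAT list of 8 tested genes, 2 rose and 2 fell. The kinases that serve the interferon receptor moved in opposite directions. Jak1 was at 6.95 to 8.51 in WT pools and 11.7 to 19.6 FPKM in Dux KO (limma adjusted p = 0.00595, log2 fold change 0.87). Tyk2 was at 5.11 to 7.74 in WT pools and 1.99 to 3.90 FPKM in Dux KO (limma adjusted p = 0.00923, log2 fold change -0.89), and so fell beside Stat2. Stat4, which acts downstream of interleukin-12, rose from 2.82 ± 0.699 to 6.30 ± 0.936 FPKM (limma adjusted p = 0.00528, log2 fold change 0.94). Among 11 inhibitors of the pathway, 1 rose and 2 fell. Socs1 rose from 5.10 ± 1.60 to 9.28 ± 1.34 FPKM (limma adjusted p = 0.0146). The phosphatases Ptpn2 (413 ± 59.0 to 237 ± 52.1 FPKM) and Ptpn1 (12.6 ± 1.57 to 7.05 ± 0.498 FPKM) fell, with limma adjusted p of 0.0107 and 0.00580.

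Of 16 interferon-induced effectors tested, 5 rose, 4 fell and 7 did not pass, with a median log2 fold change of 0.16. Over all genes tested 15.5% were higher and 18.1% lower. The 4 that fell include Bst2. Adar was among those that rose, from 1.01 ± 0.0929 to 1.65 ± 0.180 FPKM (limma adjusted p = 0.0334), and was not followed over the alternatives. Igtp, an immunity-related GTPase, was at 5 to 14 recovered reads in WT and 36 to 94 in Dux KO, and rose from 0.314 ± 0.131 to 1.90 ± 0.807 FPKM (limma adjusted p = 0.00327, log2 fold change 1.11). Dtx3l, a ubiquitin ligase, rose from 0.916 ± 0.266 to 2.01 ± 0.199 FPKM (log2 fold change 0.66), while Parp9, whose product forms a complex with DTX3L, fell from 10.3 ± 1.40 to 6.56 ± 1.74 FPKM (log2 fold change -0.60). Ifi35 fell from 59.3 ± 7.30 to 32.4 ± 5.92 FPKM (limma adjusted p = 0.00501, log2 fold change -0.86). Parp12 rose from 60.3 ± 6.64 to 90.6 ± 13.3 FPKM and Cmpk2, a mitochondrial nucleotide kinase, from 3.19 ± 0.506 to 5.21 ± 1.00 FPKM. Samhd1, which degrades nucleotides needed by viruses, fell from 11.7 ± 2.53 to 7.37 ± 0.918 FPKM. The call of Parp12 was lost without WT replicate 4 or Dux KO replicate 1 (limma adjusted p 0.0513 to 0.0528). That of Cmpk2 was lost without any of WT replicates 1, 3 and 4 and Dux KO replicates 1, 3 and 4 (0.0517 to 0.0855). The call of Parp9 was lost without any of WT replicates 1, 3 and 4 and Dux KO replicates 1 and 2 (0.0613 to 0.103), and that of Samhd1 without any of WT replicates 1, 2 and 4 and Dux KO replicates 1 and 4 (0.0635 to 0.0921). With quantile normalization Parp9 and Samhd1 did not pass (0.0626 and 0.0508).

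Cxcl10 was the 1 of 6 tested chemokine and cytokine genes that rose, and 2 fell. Cxcl16 fell from 9.55 ± 1.57 to 4.68 ± 0.991 FPKM (limma adjusted p = 0.00595, log2 fold change -0.90). Il12a, a subunit of interleukin-12, fell from 7.10 ± 1.48 to 4.42 ± 1.29 FPKM (limma adjusted p = 0.0474), a call lost in 13 of 20 alternatives. It was lost without any of WT replicates 1, 3 and 4 and Dux KO replicates 2 and 4 (0.0613 to 0.128), by edgeR (adjusted p = 0.0858) and DESeq2 (0.0645), in the authors' deposited table (0.0640), and with either other scaling (0.0542 by median of ratios, 0.0530 by quantiles). By edgeR and by DESeq2, 1 gene of this list rose and 1 fell. In NF-kB signalling, 2 of 12 rose, 3 fell and 7 did not pass. Relb, a subunit of NF-kB, was at 5.42, 7.89, 5.56 and 9.91 FPKM in WT replicates 1 to 4 and 1.68, 1.13, 2.88 and 2.12 FPKM in Dux KO replicates 1 to 4. Its groups did not overlap, and its log2 fold change was -1.47 (limma adjusted p = 0.00278). Traf6, a signalling ubiquitin ligase, rose from 1.21 ± 0.350 to 2.71 ± 0.501 FPKM (log2 fold change 0.75). Traf2 fell from 5.17 ± 1.43 to 2.68 ± 0.408 FPKM (log2 fold change -0.73). The subunit Rela rose from 2.99 ± 0.458 to 4.94 ± 1.47 FPKM (limma adjusted p = 0.0466), a call lost without any 1 of 7 pools, all but Dux KO replicate 3 (0.0525 to 0.118), and with quantile normalization (0.0656). The kinase Chuk fell from 20.4 ± 1.87 to 15.1 ± 1.20 FPKM (limma adjusted p = 0.0420), a call lost without any 1 of 6 pools, WT replicates 2 to 4 and Dux KO replicates 1 to 3 (0.0534 to 0.108), and with quantile normalization (0.0989).

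The genes whose pattern over the 8 pools was most like each of the 6 were found among 9429 genes, by the root mean square difference of mean-centred log2(FPKM + 1) values. The likeness uses the same pools and both groups, and is a description with no test. For Cxcl10 these were Mospd2 (0.22) and Selenow (0.23), and for Ddx58 Rabl2 (0.14) and Pld2 (0.15). Stat2 was matched most closely by Uimc1 (0.064) and Ankrd40 (0.088), and Bst2 by Terf2ip (0.049) and Ephb4 (0.069). The nearest to Oas1d were Havcr1 (0.074) and Rnf114 (0.091), and the nearest to Oas1e were Gnpda2 (0.13) and AV099323 (0.18). None of these was among the pathway genes listed. Selenow, which encodes a small selenoprotein, rose from 59.0 ± 6.48 to 180.4 ± 39.4 FPKM, a ratio of 3.06 beside 3.08 for Cxcl10.

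The pools held 12343369 to 14548526 recovered gene reads each, and no pair of pools within a group agreed within sampling noise. Dux itself was not analysed here, as no row carries its symbol. The internal part of MERVL, MERVL-int, was lower in every Dux KO pool, at 11360 to 16381 FPM (fragments scaled to library size) in WT and 4548 to 6050 FPM in Dux KO (limma adjusted p = 3.3e-05, log2 fold change -1.33). Some markers of the stage and of maternal RNA differed between the groups too. Over all genes tested, 15.5% were higher and 18.1% lower by limma. Of 13 tested 2-cell-stage markers (15 listed), 0 were higher, 4 lower and 9 did not pass, with a median log2 fold change of -0.06. Their summed level was 1527 to 1854 in WT pools and 806 to 1163 FPKM in Dux KO, without overlap. Most of that sum was Obox6, which fell from 1351 ± 167 to 729 ± 202 FPKM (limma adjusted p = 0.0108). Of 12 oocyte-derived markers 4 rose, 3 fell and 5 did not pass. Bmp15 rose from 110.2 ± 27.7 to 283 ± 98.2 FPKM and Btg4 from 428 ± 117 to 1200 ± 708 FPKM, while Zp3 fell from 198 ± 20.0 to 91.5 ± 19.9 FPKM (limma adjusted p = 0.00458, 0.0195 and 0.00297). These markers were named after their values were seen, and their part in the changes of the 6 genes was not tested. Leukocytes express Cxcl10 and other genes named here. Of 20 leukocyte markers 5 had a row, and Ptprc, Cd3e, Itgam, Adgre1, Csf1r and Lyz2 had none. The summed level of the 5 was 7.86 to 13.5 in WT pools and 13.4 to 19.4 FPKM in Dux KO. Of them 1, the B-cell gene Ms4a1, rose from 4.43 to 9.21 FPKM by its means (limma adjusted p = 0.00421). The other 4, Cd79a, Laptm5, Cd4 and Cd68, did not pass, with log2 fold changes of 0.17, 0.41, -0.06 and -0.12. Cumulus and granulosa cell markers, 4 of 12 in the table, summed to 3.04 to 11.1 in WT pools and 7.78 to 57.4 FPKM in Dux KO. Among them Cyp19a1 rose (limma adjusted p = 0.0167), and Hsd3b1 reached 50.5 FPKM in Dux KO replicate 2 without passing (limma adjusted p = 0.140). Hsd3b1 in that pool made up most of the highest sum. Tnfaip6 and Kitl did not pass, with log2 fold changes of -0.08 and 0.22 (limma adjusted p = 0.866 and 0.350). The part of these other cells in the changes of Cxcl10 and the other genes was not tested. Oviduct markers (4 of 10 in the table) summed to 133 to 151 in WT pools and 99.99 to 140 FPKM in Dux KO, most of it Epcam, which fell from 132 ± 11.4 to 90.4 ± 19.5 FPKM (limma adjusted p = 0.0297). Ovgp1 (4.96 ± 4.53 and 10.5 ± 8.52 FPKM), Krt18 (2.84 ± 1.299 and 6.83 ± 5.58 FPKM) and Msx1 (1.55 ± 1.16 and 2.55 ± 0.608 FPKM) had higher means in Dux KO and did not pass, and the median log2 fold change of the 4 was 0.66. Sperm markers had 1 of 9 in the table, Ldhc, which fell, and red blood cell markers had 0 of 8.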

How the data were processed

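RNA-seq values of 8 pools, 4 WT and 4 Dux KO, were grouped by the sample labels. Libraries were made from pooled embryos with a low-input cDNA kit and Nextera XT, per the labels' protocols. These kits do not mark strand. The submitters' processing notes list Trimmomatic 0.32, STAR 2.6.1a, SAMtools 1.7 and the build GRCm38 (mm10). Which counter, annotation, strand setting and test the authors used is not given in the sources used here. The authors deposited FPKM per gene and, for repeats, FPM, a signal scaled to a library size. The FPM of a pool summed to 834571 to 1183116, so that size was not the total of its repeat reads. The deposited tables also hold a mean signal per row, a log2 fold change and an adjusted p-value of the authors. The 2 tables left 0 numeric columns unmapped.

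From these values whole reads were recovered, with 100% whole within 0.05, giving 12343369 to 14548526 gene reads in each pool. The chi-square of reads between pools of 1 group, divided by its degrees of freedom, was 13.8 to 117, so none looked like 1 library deposited again. How FPKM was scaled between pools is inferred from their steps and not stated. Genes averaging 0.5 FPKM or more were tested by limma (version 3.58.1, R 4.3.3) on log2(FPKM + 1), using a trend and robust moderation of the variance and no covariate, two-sided, with Benjamini-Hochberg adjustment over all 12434 genes at 0.05. The script was run on simulated counts with the same dispersion for every gene. That checks the code only and gives no error rate for these pools. Exact permutation tests used the 70 assignments of 4 against 4 pools. No interval was given for reads, whose number measures counting error only.

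The 6 genes, the 16 lists (9 of the pathway, 5 of other cells, 2 of embryo identity) and the motifs were chosen with earlier results of these data known. Named from each pathway list were at most 4 genes called per direction, by size of log2 fold change, or, with none called, the 2 of highest mean, and the 2 genes most like each of the 6, with a mean of at least 1 FPKM. Other genes of the Oas1 and Cxcl10 clusters, and Adar, were also named. Coordinates came from GENCODE M21 (GRCm38), where 13100 of 13101 identifiers matched. The 18 alternatives included edgeR 4.0.16 and DESeq2 1.42.0 on recovered reads, and 2 more were added after the values were seen.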

Additional observations from a re-analysis of the deposited data

Results flagged for a closer look

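In 74 groups of 4 pools, 1 group per gene and genotype, 9 held a pool far from the other 3 by Dixon's criterion, which chance alone meets in about 1 in 20 groups. Cxcl10 was at 8.37 FPKM in WT replicate 2 and at 4.24 to 4.59 FPKM in the other WT pools. Tmem173 was at 1.42 FPKM in WT replicate 2, below 2.80 to 3.00 FPKM in the others. Ifi35 was at 48.5 FPKM in WT replicate 3, below 62.4 to 64.0 FPKM. In Dux KO replicate 2, Irf1 was at 14.6 FPKM (others 10.1 to 10.7) and Dtx3l at 2.31 FPKM (others 1.89 to 1.93). In the same pool Ptpn2 was at 159.8 FPKM (others 256 to 274), Cmpk2 at 3.71 FPKM (others 5.62 to 5.79) and Parp9 at 3.97 FPKM (others 7.28 to 7.72). Samhd1 was at 5.99 FPKM in Dux KO replicate 4, below 7.73 to 7.89 FPKM in the others. Of the 9 pools so marked, 5 were Dux KO replicate 2. No cause of these values was tested.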

How the results depend on the processing

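Cxcl10 kept its direction and its call in all 20 alternatives, with a log2 fold change of 1.36 to 1.67 and a highest adjusted p of 0.0253. With a mean of at least 5 FPKM, 2 of the 6 genes and 13 pathway genes (28 otherwise) passed, since Ddx58, Stat2 and other low genes were then not tested. All genes then split into 1032 higher and 1880 lower, against 1933 and 2249. Leaving out single pools gave 2522 to 4049 changed genes (4182 otherwise) and 17 to 26 pathway genes. The lowest counts came without WT replicate 4 (2522 and 17) and without Dux KO replicate 1 (2682 and 17), while Cxcl10, Ddx58, Stat2 and Bst2 passed in each. Oas1d then ranged from -0.15 to 0.074, and was 0.23 by quantile normalization, 0.019 by edgeR and 0.020 by DESeq2. Bst2 was -0.49 by edgeR and did not pass. Without Dux KO replicates 1 and 2, 795 genes, 5 pathway genes and 1 of the 6 passed, with Ddx58 at 0.63, Stat2 at -0.57, Bst2 at -0.51 and Oas1e at -0.012. Without replicates 3 and 4, Bst2 was -0.47 and did not pass, and Oas1d was 0.14. The exact permutation p rose to 0.0571 for Cxcl10 without Dux KO replicate 2 or 4 and for Ddx58 without WT replicate 1 or 3. With a pool left out fewer assignments remain, and in these cases another assignment gave a difference at least as large. The groups still did not overlap. The cause of the other changes was not tested. Same-numbered pools correlated at -0.12, 0.33, -0.06 and 0.30, and other pairs of a WT and a Dux KO pool at -0.40 to 0.27. Whether the numbers pair the pools cannot be told from these values. With the replicate block 4732 genes, 32 pathway genes and 4 of the 6 passed, and Il12a did not (adjusted p = 0.0519). Depth limits Igtp and Ticam1 most, with fewer than 20 recovered reads in every pool of 1 group.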
